A study of Homo sapiens with 12 samples.

Results

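U87TR is a temozolomide-resistant derivative of the glioblastoma cell line U87MG, and the comparison described here sets its 3 RNA sequencing libraries against the 3 libraries of the parental line. These are 6 of the 12 libraries of the series, which also holds U251MG and its resistant derivative U251TR with 3 libraries each. The members are the genes with a value of at least 1 FPKM (sequenced fragments scaled by transcript length and by the size of the library) in at least 3 of the 6 libraries, 13464 of 31654 gene symbols. Both lines were grown in DMEM with 10% FBS. U87TR was obtained by exposing U87MG again and again to rising amounts of temozolomide, and U87MG is the line without that exposure. The labels give 1 resistant line for the parent and do not say whether it is a clone, and they are silent on whether separate cultures gave the 3 libraries, which leaves p-values that measure only the spread between these libraries. The library codes of U87TR come from a different number block than those of the other lines, and this block and resistance cannot be told apart.

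Temozolomide is an alkylating drug that methylates DNA bases. The lesion that kills most cells is a methyl group on the O6 position of guanine, which the enzyme MGMT removes directly. Where it stays, the mismatch repair proteins, MSH6 and PMS2 among them, turn it into strand breaks, while methylated adenine and N7-methylguanine are handled by base excision repair, which starts with the glycosylase MPG and the endonuclease APEX1. Many glioblastomas and glioblastoma cell lines carry a silenced MGMT gene.

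The FPKM values of a library summed to between 714043 and 770210, and 13135 to 13421 symbols reached 1 FPKM. The depth behind these values is not known, since the table holds no read counts. Rank correlations across the genes tested were 0.993 between U87MG replicates 1 and 2 but 0.980 and 0.985 between these and replicate 3, against 0.989 to 0.992 among the U87TR libraries and 0.948 to 0.957 between the lines, and replicate 3 was the U87MG library closest to each U87TR library. Results that turn on U87MG replicate 3 are given with and without it. Of 14 glioma and astrocyte markers, 9 were tested, 4 were higher and 4 lower, and the astrocyte water channel AQP4 was listed at 0 in all 6 libraries. VIM, the intermediate filament vimentin, was the highest of them, with 4552–5373 FPKM in U87MG and 3819–4266 in U87TR. The leukocyte markers PTPRC, CD3E and MS4A1 were under 0.1 FPKM in every library. The 7 leukocyte markers in the table summed to 190 to 205 FPKM in U87MG and 314 to 344 FPKM in U87TR, nearly all of it from the lysosomal gene CD68.

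Of the 13464 genes tested, 4233 (31.4%) changed at an adjusted p under 0.05 in limma, 1589 (11.8%) higher and 2644 (19.6%) lower in U87TR. Changes of at least 2-fold were found for 790 genes (5.87%), 378 (2.81%) higher and 412 (3.06%) lower. The median change among the genes called was 1.47-fold, and the smallest was 1.14-fold. All differences are on the log2(FPKM + 1) scale, which understates the change of weakly expressed genes. The median difference over all genes tested was -0.07, and 37.5% of the changed genes were higher. With median-of-ratios factors 49.4% were higher and with quantile normalization 48.5%, so the excess of lower genes depends on the scaling. The libraries of the lines did not overlap for 6628 genes (49.2%). Counts of genes in a group below are read against these shares.

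**Figure D1:**
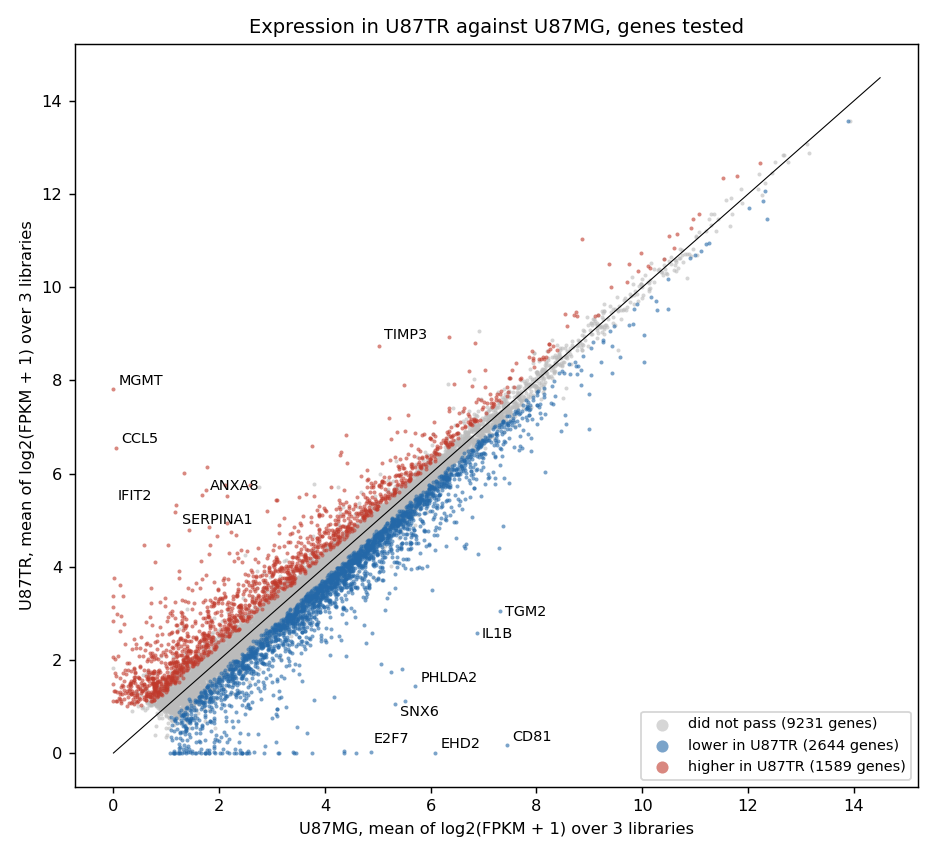
Mean log2(FPKM + 1) over the 3 U87MG libraries (x axis) and the 3 U87TR libraries (y axis) for the 13464 genes tested, with genes higher (red), lower (blue) or not passing (grey) at an adjusted p under 0.05. Most genes lie near the diagonal of equal levels, MGMT and CCL5 rise from near 0, and CD81, EHD2 and E2F7 fall to near 0.

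MGMT was the gene with the largest rise. Its value was 0 FPKM in each U87MG library, and in U87TR it was 232, 227 and 213 FPKM (adjusted p = 6.31e-14). The U87TR libraries lay close together. The other genes that act on temozolomide lesions changed by less. Of 22 tested repair genes of this kind, 1 was higher and 6 were lower, with a median log2 difference of 0.01. MPG, the glycosylase that removes methylated adenine, stood at 50.6, 53.99 and 60.8 FPKM in U87MG and 34.03, 35.9 and 40.02 in U87TR. It fell by 0.58 (log2, SE 0.10) with an adjusted p of 0.000704. ALKBH2, which repairs methylated bases by oxidation, fell by 0.56 (SE 0.10). XRCC1 and LIG3, the scaffold and ligase of base excision repair, fell by 0.47 and 0.49. Of the mismatch repair genes, MSH6 (log2 difference 0.19, adjusted p = 0.312) and PMS2 (0.05, adjusted p = 0.696) did not pass. APEX1 had 78.9, 81.2 and 65.2 FPKM in U87MG and 52.9, 54.2 and 57.3 in U87TR. It fell by 0.44 (adjusted p = 0.0292), a call that was lost on leaving out any one of the 6 libraries except U87MG replicate 3, with adjusted p from 0.0541 to 0.109. Of 32 genes of double-strand break and Fanconi repair, 1 was higher and 3 lower. The count lower was 1 without U87MG replicate 2, U87TR replicate 1 or U87TR replicate 3, and the count higher was 2 without U87MG replicate 1 or U87TR replicate 1.

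MGMT stood apart from its neighbours on chromosome 10. The 8 tested genes nearest to it in gene order, from DOCK1 to DPYSL4, had a median log2 difference of -0.29. None of them was higher in U87TR and 4 were lower.

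The chemokine CCL5, which draws T cells and monocytes, had the second largest rise. It was at 0.03, 0 and 0.07 FPKM in U87MG and 108, 81.6 and 92.1 in U87TR (log2 difference 6.51, SE 0.13, adjusted p = 4.47e-12). No library of one line came near those of the other. The other rises among the 12 largest, all taken from genes without overlap between the lines, fell into a few kinds. IFIT2, RSAD2 and IFIT1 are interferon-induced antiviral genes and are described below with their group. SERPINA1, the secreted inhibitor of neutrophil elastase, was at 0.76, 0.98 and 2.17 FPKM in U87MG and 36.6, 36.04 and 32.6 in U87TR. TIMP3, an inhibitor of metalloproteinases that is bound to the matrix, was at 23.2, 24.6 and 54.4 FPKM in U87MG and 507, 406 and 378 in U87TR, the highest level reached by any of the 12. Its U87MG replicate 3 was above the other parental libraries, and all 3 U87TR libraries were higher still.

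ANXA8, a calcium-dependent phospholipid-binding annexin, rose from 1.62, 2.09 and 2.96 to 53.6, 40.6 and 43.3 FPKM. Its near-identical copies ANXA8L1 and ANXA8L2 were also higher, by 1.61 and 1.95 on the log2 scale, and reads cannot be assigned to one of the 3 with certainty. SLC9A3R2, a scaffold of membrane transporters, rose from 2.32, 2.62 and 2.23 to 47.3, 46.6 and 52.9 FPKM. MYO15B, a myosin-like gene, rose from 0.66, 0.36 and 0.5 to 25.4, 18.9 and 19.9 FPKM, and C10orf118 from 3.09, 2.05 and 2.19 to 79.5, 69.98 and 60.3 FPKM. Each of these 4 genes was under 5 FPKM in every U87MG library. HCP5, a transcript of the MHC class I region, was at 0.09, 0.1 and 0.08 FPKM in U87MG and 11.2, 11.7 and 10.7 in U87TR. Among the genes tested it lies between MICA and MICB in gene order.

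**Figure D2:**
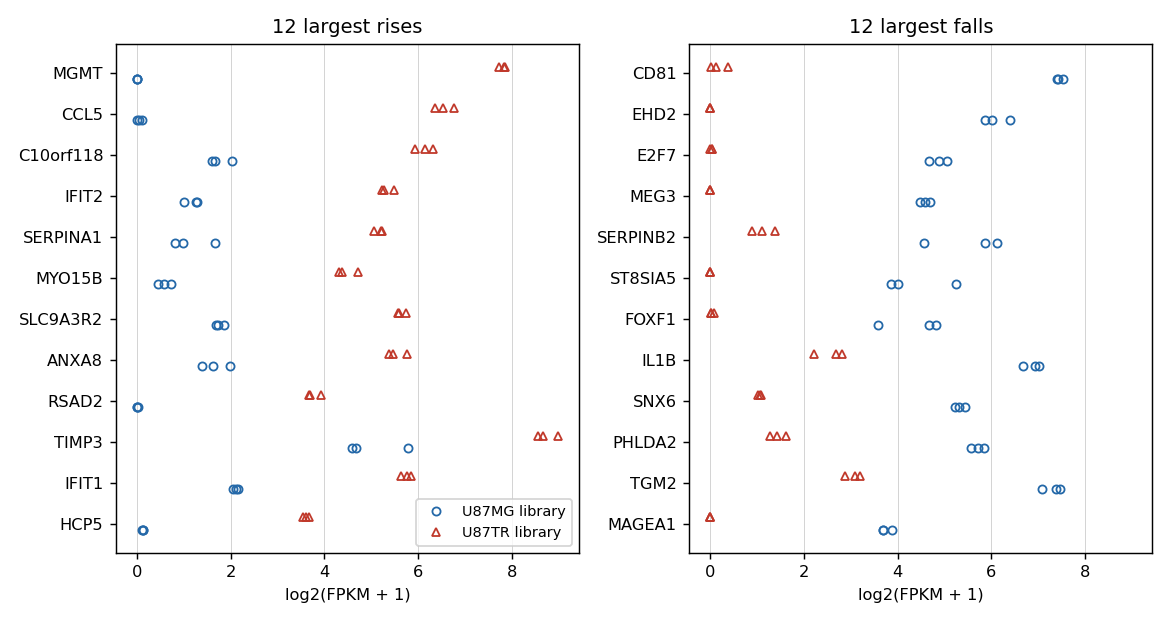
Log2(FPKM + 1) of each library for the 12 largest rises (left) and the 12 largest falls (right) among genes with a plain symbol and at least 10 FPKM in the higher line; open circles are the 3 U87MG libraries and open triangles the 3 U87TR libraries. Lines are separate in each gene, as the choice of genes required, and SERPINB2, FOXF1, ST8SIA5 and TIMP3 show 1 U87MG library away from the other two.

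CD81 had the largest fall. It codes for a tetraspanin, a membrane protein that organises receptors and integrins at the cell surface. Its level was 169, 169.9 and 183 FPKM in U87MG and 0.08, 0.29 and 0.01 in U87TR. It fell by 7.29 (log2, SE 0.11) with an adjusted p of 6.92e-13. EHD2, an ATPase of the caveolar neck, was at 57.5, 63.1 and 83.1 FPKM in U87MG and was listed at 0 in all 3 U87TR libraries (adjusted p = 7.49e-12). The transcription factor E2F7, a repressor of E2F target genes, was at 32.2, 28.2 and 24.4 FPKM in U87MG and 0, 0.02 and 0.02 in U87TR. All 3 genes thus went from well expressed to at or near 0 in every U87TR library.

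Several other genes were listed at 0 throughout U87TR. MEG3, a long noncoding RNA expressed from the maternal allele, was at 23, 24.7 and 21.1 FPKM in U87MG and listed at 0 in every U87TR library. ST8SIA5, a sialyltransferase of ganglioside synthesis, was at 13.4, 14.97 and 37.1 FPKM in U87MG and also at 0 in U87TR. The cancer-testis genes MAGEA1, MAGEA6 and CT45A5 were at 11.8–13.8, 9.63–10.3 and 7.69–7.89 FPKM in U87MG and at 0 in all 3 U87TR libraries, as was ZNF528, a zinc finger gene (7–8.03 FPKM in U87MG). MAGEA genes are near-identical copies, so the split of reads between them is uncertain. In all, 33 symbols went from 1 FPKM or more in each U87MG library to 0 in each U87TR library, against 8 the other way. Of these, 7 and 1 had a plain symbol and at least 5 FPKM, the 1 being MGMT.

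SERPINB2, the inhibitor of urokinase known as PAI-2, was at 67.97, 57.4 and 22.4 FPKM in U87MG and 0.85, 1.59 and 1.13 in U87TR. FOXF1, a forkhead transcription factor of mesenchyme, was at 27.2, 24.4 and 10.9 FPKM in U87MG and 0.06, 0.01 and 0.01 in U87TR. Its divergent neighbour FENDRR, a long noncoding RNA, fell with it from 8.61–10.2 FPKM to at most 0.02 FPKM, and whether the counting used strand is not stated. In both SERPINB2 and FOXF1, U87MG replicate 3 was the lowest of the parental libraries and still above all of U87TR.

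The last falls in the 12 were in signalling and structural genes. IL1B, the inflammatory cytokine interleukin 1 beta, was at 100.3, 128 and 121 FPKM in U87MG and 3.64, 5.45 and 5.98 in U87TR (log2 difference -4.30, SE 0.16). TGM2, the crosslinking enzyme tissue transglutaminase, was at 165, 175 and 134 FPKM in U87MG and 6.31, 7.43 and 8.2 in U87TR. SNX6, a sorting nexin of the retromer, was at 36.5, 38.7 and 42.4 FPKM in U87MG and 1.08, 1.03 and 1.1 in U87TR. PHLDA2, an imprinted gene that restrains placental growth, was at 51.1, 56.7 and 45.9 FPKM in U87MG and 1.42, 1.67 and 2.06 in U87TR. In gene order PHLDA2 lies near CD81 on chromosome 11, with TSSC4 and SLC22A18 between them.

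For the 6 largest rises and falls, the change in U87TR was set against the change of U251TR from U251MG in one model. Only U87TR has library codes from the other number block, which cannot be told apart from a difference between the lines. In U251TR 51.8% of the same genes changed. The difference passed for 11 of these 12 genes and for 47.0% of all genes. The 12 genes were chosen for the size of their U87 change. That change is part of the difference, so the choice favoured passing and these shares cannot be compared. MGMT was higher in both resistant lines, by 3.27 on the log2(FPKM + 1) scale in U251TR, and the difference between the lines was 4.54. CCL5 rose by 6.70 in U251TR, and its difference of -0.19 did not pass (adjusted p = 0.403). SERPINA1 rose by 3.30 in U251TR and IFIT2 by 5.10, and for SERPINA1 the difference of 0.72 was lost on leaving out any U87 library but U87MG replicate 3. C10orf118 and MYO15B had differences of 0.16 and -0.20 in U251TR, where neither passed. CD81 (-0.14), EHD2 (-0.30), E2F7 (-0.41), SERPINB2 (0.00) and ST8SIA5 (0.02) did not pass in U251TR either. The levels of these genes in U251MG are not reported here, and a gene hardly expressed there has no room to fall. MEG3 rose in U251TR by 1.87, opposite to its loss in U87TR.

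The genes induced by interferons were mostly higher in U87TR. Interferons act through JAK kinases and factors such as STAT2 and IRF9, which bind a short element with 2 TTTC half-sites in the promoters of antiviral genes. Promoters of 4 of these genes are shown here so that the element can be seen beside the values, 3 from genes that were higher and 1, IFIT5, from a gene that did not pass. These 4 promoters were picked among those that hold the element. Each is the stretch of 250 bases that ends before the start of the gene, from RefSeq on GRCh38.p14, plus strand, and the capitals mark matches to TTTCNNTTTC on either strand.
IFIT1, chr10:89392373-89392622: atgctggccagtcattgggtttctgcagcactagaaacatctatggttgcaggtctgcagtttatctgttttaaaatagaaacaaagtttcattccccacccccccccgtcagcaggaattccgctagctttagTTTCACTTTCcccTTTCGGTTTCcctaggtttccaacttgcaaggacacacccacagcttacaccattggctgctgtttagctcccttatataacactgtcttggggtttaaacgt
IFIT3, chr10:89327747-89327996: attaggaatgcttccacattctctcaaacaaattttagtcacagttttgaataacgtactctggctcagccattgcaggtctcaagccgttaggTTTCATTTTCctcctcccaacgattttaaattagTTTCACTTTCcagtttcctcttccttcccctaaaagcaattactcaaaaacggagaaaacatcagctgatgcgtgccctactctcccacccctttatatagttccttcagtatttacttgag
ISG15, chr1:1013247-1013496: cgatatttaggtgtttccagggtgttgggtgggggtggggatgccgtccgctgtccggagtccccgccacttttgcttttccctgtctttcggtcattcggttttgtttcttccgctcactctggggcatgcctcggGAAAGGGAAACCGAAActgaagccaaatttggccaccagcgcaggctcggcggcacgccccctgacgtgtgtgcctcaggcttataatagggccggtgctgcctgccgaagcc
IFIT5, chr10:89414318-89414567: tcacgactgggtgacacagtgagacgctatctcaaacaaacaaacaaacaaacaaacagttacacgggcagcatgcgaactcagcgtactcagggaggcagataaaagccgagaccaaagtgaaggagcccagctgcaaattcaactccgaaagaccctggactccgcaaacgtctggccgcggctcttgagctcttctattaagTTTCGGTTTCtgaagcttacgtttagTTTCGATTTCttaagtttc

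Matches to TTTCNNTTTC, or its reverse complement GAAANNGAAA, were found in 3.07% of 27305 promoters of this length and in 2.44% of the 9141 promoters of genes tested. Overlapping matches, as in ISG15, were counted. Of 23 tested interferon-stimulated effector genes with a promoter entry, 15 (65.2%) held a match. These were 11 of the 16 that were higher in U87TR and 4 of the 7 that did not pass. IFITM2 and TRIM22, which were lower, had no promoter entry. IFIT5 held 2 matches and had 13.04, 13.6 and 11.6 FPKM in U87MG and 11.1, 12.04 and 10.6 in U87TR, with a log2 difference of -0.17.

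Of 30 interferon-stimulated effector genes tested, out of 35 listed, 20 were higher and 2 lower in U87TR, with a median log2 difference of 0.86 against -0.07 over all genes. IFIT2 was at 0.99, 1.42 and 1.39 FPKM in U87MG and 43.7, 37.8 and 36.7 in U87TR, a 17.8-fold rise on the log2(FPKM + 1) scale (log2 difference 4.16, SE 0.12, adjusted p = 2.39e-10). RSAD2, which codes for the antiviral enzyme viperin, was at 0.01, 0 and 0 FPKM in U87MG and 14.1, 11.7 and 11.9 in U87TR. IFIT1, a sensor of foreign RNA ends, was at 3.13, 3.46 and 3.35 FPKM in U87MG and 56.6, 49.1 and 52.98 in U87TR. Each of these genes was low in all parental libraries and high in all resistant ones. IFIT3, a partner of IFIT1, was at 5.37, 4.79 and 4.76 FPKM in U87MG and 56.7, 50.2 and 51.5 in U87TR.

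ISG20, an antiviral exonuclease, was at 0.33, 0.65 and 1.36 FPKM in U87MG and 13.3, 18.9 and 16.9 in U87TR. OASL, a member of the oligoadenylate synthetase family, rose from 11.9–13.2 to 92.1–99.2 FPKM. ISG15, a ubiquitin-like modifier, was the most highly expressed of the list in U87TR, at 36.7, 36.7 and 35.1 FPKM in U87MG and 145, 134 and 156 in U87TR. HERC5, the ligase that attaches ISG15, rose with it by 1.66 on the log2 scale. The group did not move as a block. TRIM22 and IFITM2, both on chromosome 11, were lower by 0.72 and 1.14, and TRIM22 is in one of the runs of lower neighbours described below. IFI44L (log2 difference -0.31) did not pass, except without U87TR replicate 1 (adjusted p = 0.0416). MX1, a classical interferon marker, was below the filter with 0.91, 0.99 and 0.88 FPKM in U87MG and 0.79, 1.37 and 1.42 in U87TR. IFI27 was below it too, with 0.13–0.29 FPKM in U87MG and 0.44–0.62 in U87TR. In gene order IFIT2, IFIT3, IFIT1 and IFIT5 are next to each other on chromosome 10, and the first 3 were higher while IFIT5 was not.

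**Figure D3:**
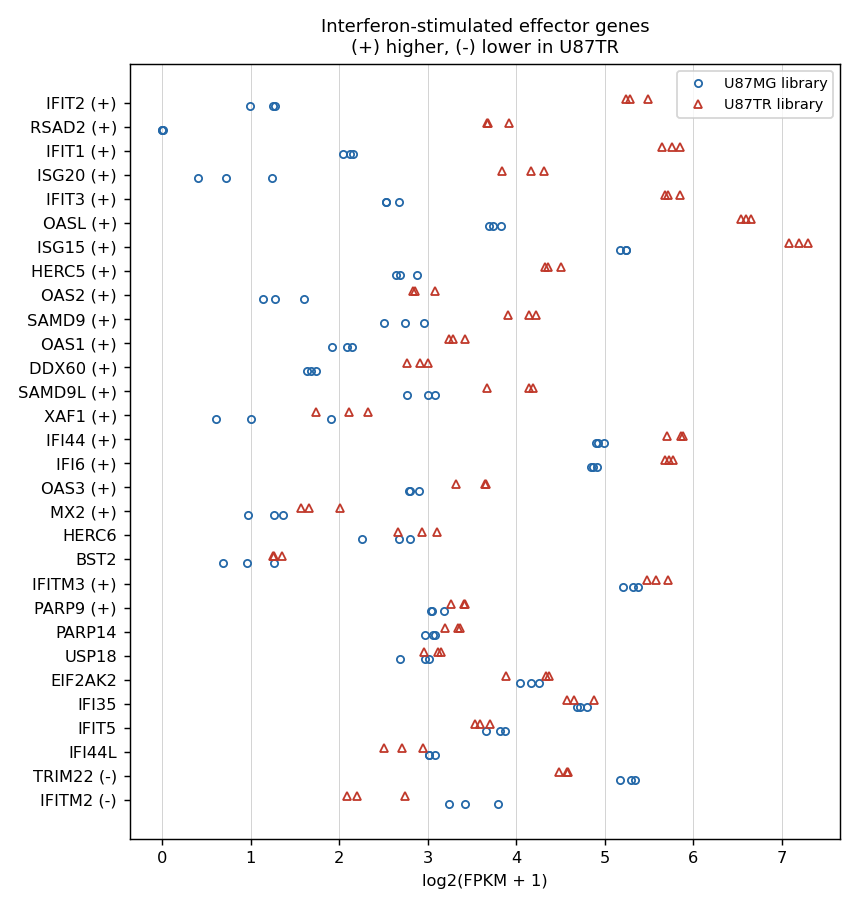
Log2(FPKM + 1) in each library for the 30 interferon-stimulated effector genes tested, ordered by log2 difference; open circles are U87MG and open triangles U87TR libraries, and (+) and (-) mark genes that passed as higher or lower. All triangles lie to the right of all circles from IFIT2 down to MX2 except in XAF1, and all lie to the left in IFI44L, TRIM22 and IFITM2.

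Receptors, sensors and factors of the interferon system act upstream of these effectors. Of 26 tested, 8 were higher and 2 lower, with a median of 0.11, and the count lower was 1 on leaving out any single library other than U87TR replicate 1. The cytosolic RNA sensors DDX58 (RIG-I) and IFIH1 (MDA5) rose from 3.32–3.6 to 11.8–12.9 FPKM and from 2.09–2.82 to 6.89–7.49 FPKM. TBK1, the kinase that activates IRF3, rose from 12.99–14.9 to 25.6–27.95 FPKM, and IFNGR2, a chain of the interferon gamma receptor, by 0.78 on the log2 scale. JAK2 was higher by 0.57. The 2 lower genes were JAK1, another kinase of the receptors, which fell by 0.54 (adjusted p = 0.00167), and MAVS, the adaptor of the RNA sensors, which fell by 0.33 (adjusted p = 0.0486). The fall of MAVS did not pass on leaving out any single library other than U87TR replicate 1 (adjusted p from 0.0537 to 0.19). STAT2 (log2 difference 0.00, adjusted p = 0.999) and IRF9 (-0.32, adjusted p = 0.0728) did not pass.

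Genes of MHC class I presentation, which display peptides to T cells, were higher for 7 of 16 tested and lower for none. B2M, the light chain, was at 2964, 2899 and 2960.0 FPKM in U87MG and 5377, 5045 and 5317 in U87TR, a 1.78-fold rise (SE 0.07 on the log2 scale, adjusted p = 1.98e-06). The heavy chains HLA-B, HLA-C and HLA-F rose by 0.70, 0.57 and 1.09. Reads of these similar genes may be divided between them with error.

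Chemokines and cytokines went both ways. Of 14 chemokine and receptor genes tested, 5 were higher and 4 lower. CXCL10, an interferon-induced ligand of CXCR3, was at 0, 0.03 and 0.11 FPKM in U87MG and 9, 6.11 and 6.02 in U87TR. CXCL11, another such ligand, was at 0, 0.06 and 0 FPKM in U87MG and 3.77, 2.42 and 3.04 in U87TR. The neutrophil chemokine CXCL5 went the other way, from 2.5, 2.56 and 3.11 FPKM in U87MG to 0.17, 0.13 and 0.05 in U87TR, and CXCL14 fell by 1.76. ACKR3, a scavenging chemokine receptor, rose by 1.95. CXCL10, CXCL11 and CCL5 passed the filter only through U87TR and could be called only as higher. CXCL5 passed it only through U87MG and could be called only as lower. The counts of this list are limited by that.

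Of 25 cytokine and cytokine receptor genes, 9 were lower and 4 higher, with a median of -0.22. Besides IL1B these included CSF3, the granulocyte colony-stimulating factor, at 257, 337 and 266 FPKM in U87MG and 46.1, 72.03 and 80.2 in U87TR. LIF, a cytokine of the interleukin 6 family, was at 84, 84.2 and 95.3 FPKM in U87MG and 20.04, 26.1 and 24.5 in U87TR. IL13RA2, the decoy receptor for interleukin 13 that is common on glioblastoma cells, was at 59.6, 57.7 and 51.1 FPKM in U87MG and 13.9, 14.4 and 15.9 in U87TR. All 3 were separate between the lines. Beside IL1B in gene order, IL36B fell from 30.1–33.9 to 2.3–3.12 FPKM, IL36RN from 10.4–15.04 to 0.99–1.49 and IL1RN from 2.68–3.62 to 1.05–1.49, so that 4 genes of the interleukin 1 family on chromosome 2 were lower together. IL1A, in the same group of neighbours, had 2.08–2.37 FPKM in U87MG and 1.55–2.17 in U87TR and did not pass.

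NF-kB factors and feedback genes showed 5 higher and 4 lower of 24. ICAM1, an adhesion molecule induced by NF-kB, was at 6.4, 8.06 and 8.18 FPKM in U87MG and 0.96, 1.14 and 0.72 in U87TR. RELA, the main activating subunit, fell from 52.7–65.1 to 25.6–27.2 FPKM and lies in the run of lower genes on chromosome 11. TRAF1, BIRC3 and TNFAIP2, all known targets of the pathway, rose by 1.35, 1.27 and 1.16. The targets named here therefore moved in both directions.

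Growth factor signalling genes are read beside the 1589 genes higher and 2644 lower over all genes tested. The receptor kinase, Notch and WNT lists had a similar balance of lower to higher members. The MAPK list leaned further to lower. Of 30 genes of MAPK output and feedback, which report activity of the RAS and ERK cascade, 13 were lower and 2 higher, with a median of -0.40. Without U87MG replicate 3 these counts were 11 and 4. CCND1, the G1 cyclin, was at 267, 269 and 240.0 FPKM in U87MG and 116, 143 and 138 in U87TR, a 1.95-fold difference on the log2(FPKM + 1) scale. SPRY2, a feedback inhibitor of receptor kinases, fell from 60.5–79.5 to 33.3–42.2 FPKM. The immediate early genes EGR1 and EGR2 went up instead, by 1.00 and 1.31. Among 17 receptor tyrosine kinases, 5 were lower and 3 higher. EGFR was at 34.1, 36.6 and 40.4 FPKM in U87MG and 23.3, 20.1 and 16.6 in U87TR (log2 difference -0.87, SE 0.14). EPHB2, an ephrin receptor, was at 65.03, 59.5 and 40.4 FPKM in U87MG and 14.6, 15.8 and 14.7 in U87TR, and PDGFRB rose by 0.72. Of 10 Notch genes, 2 were higher and 3 lower, NOTCH1 falling by 1.09 and NOTCH3 rising by 1.01. Of 25 WNT genes, 9 were lower and 5 higher, and the secreted antagonist DKK3 fell from 17.7, 17.6 and 15.8 to 1.48, 1.59 and 0.94 FPKM. DKK3 lies in a run of lower genes on chromosome 11.

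Cell cycle genes were called no more often than genes at large. Of 38 genes of the E2F family and S phase, 4 were higher and 7 lower, and of 30 genes of G2 and mitosis, 1 was higher and 1 lower (none higher with any single library left out, and none lower, or 4 without U87MG replicate 3). E2F2, an activating E2F, rose from 2.24–2.83 to 5.69–6.44 FPKM. The DNA polymerase subunit POLA2 and the ribonucleotide reductase subunit RRM1 fell by 1.27 and 0.97. Both lie in runs of lower genes on chromosome 11, and outside these runs 4 members of the E2F list were higher and 5 lower. Of 12 G1 genes, 3 were lower (CCND1, CDK4 and CCND3) and none higher, and CDK4 did not pass without U87MG replicate 1 or 2 or U87TR replicate 1 (adjusted p from 0.0605 to 0.0715). Among 31 p53 targets, 2 were higher and 6 lower, but 5 and 4 with median-of-ratios factors. The count higher was 1 without U87MG replicate 1 or 2 or U87TR replicate 1 or 2, and the count lower 3 without U87TR replicate 3. BAX, the pore-forming promoter of apoptosis, fell from 138–149.7 to 81.1–92.6 FPKM, and BTG2, an antiproliferative gene, rose by 1.32.

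**Figure D4:**
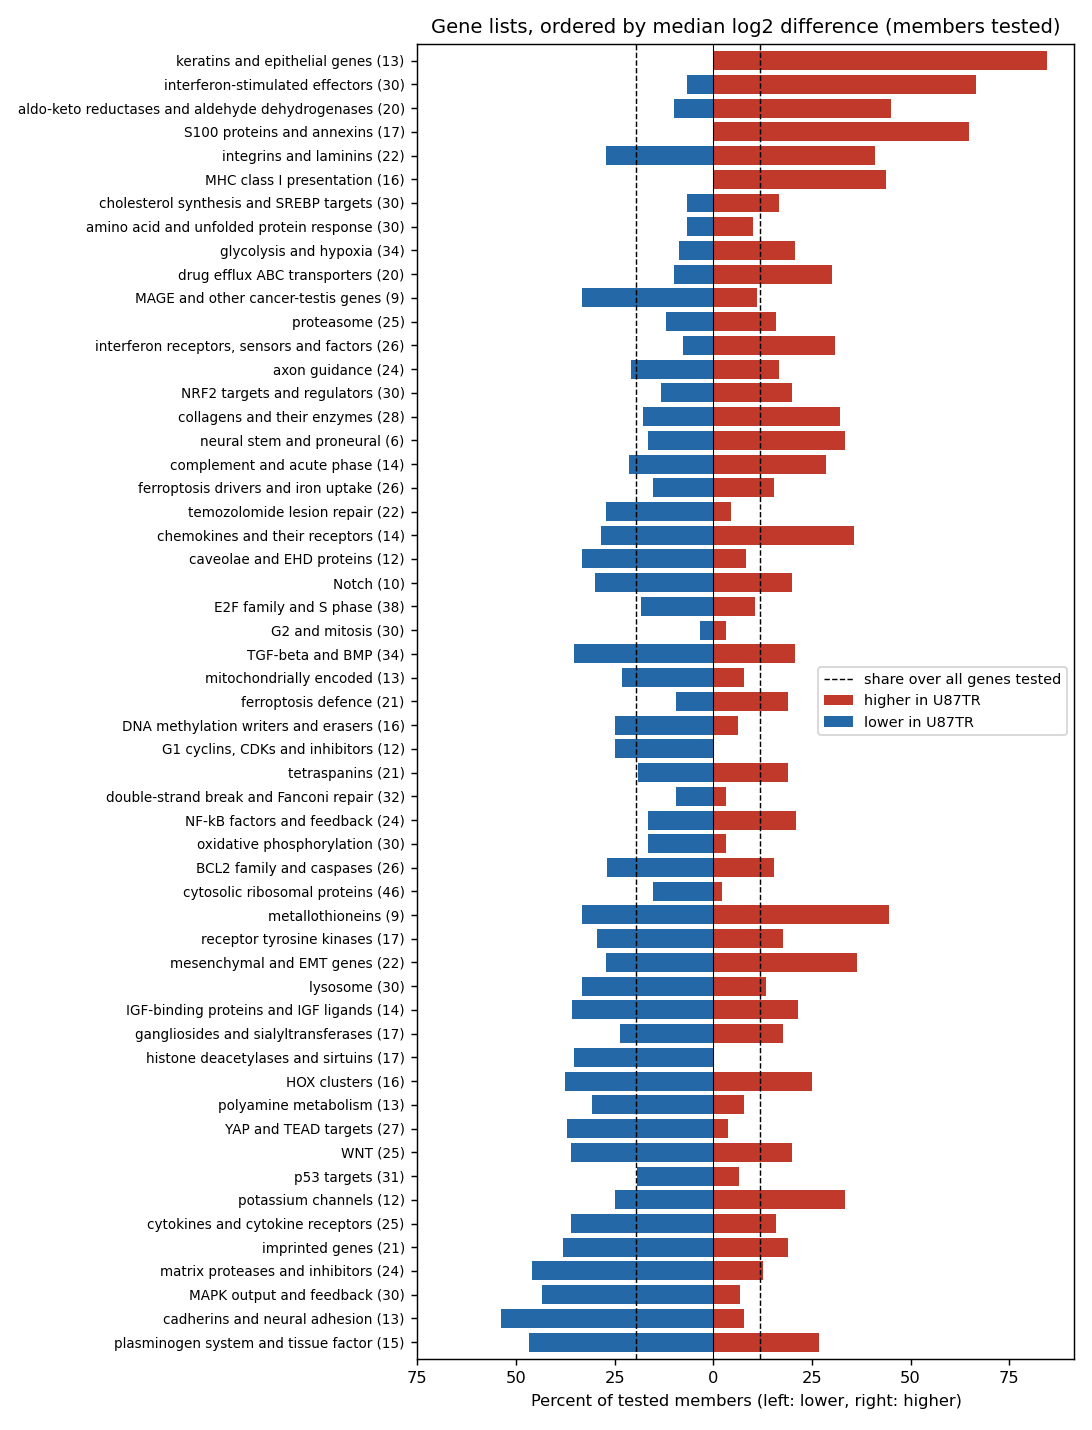
Percent of tested members that were higher (red, to the right) and lower (blue, to the left) in U87TR for 55 gene lists, ordered by median log2 difference, with the number of members tested in parentheses and dashed lines at the shares over all genes tested, 11.8% and 19.6%. Keratins and epithelial genes, interferon-stimulated effectors and S100 proteins and annexins have the most members higher, and cadherins, the plasminogen system and matrix proteases the most members lower. A member that passed the filter only through a single line could be called in that direction alone.

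The surface and membrane genes around CD81 and EHD2 did not follow them as families. Of 21 tetraspanin genes, 4 were higher and 4 lower. TSPAN13 rose from 12.3–16.5 to 37.2–39.4 FPKM and TSPAN1 from 3.09–3.79 to 8.86–10.3, while TSPAN10 fell from 15.7–16.4 to 2.41–4.05. Apart from the runs of lower neighbours 4 tetraspanins were higher and 1 lower. Of 12 genes of caveolae and EHD proteins, 4 were lower and 1 higher. EHD1, a recycling relative of EHD2, fell from 113–155 to 57.2–61.3 FPKM, and it too is in a run of lower genes on chromosome 11. CAV2 was the gene higher, by 0.67, a call lost on leaving out any one of the 6 libraries (adjusted p from 0.085 to 0.107), while 2 other genes of the list passed as higher without U87MG replicate 3.

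Genes for the matrix and its turnover were changed in many members. Of 24 matrix proteases and inhibitors, 11 were lower and 3 higher (5 without U87MG replicate 3), with a median of -0.34. MMP3, stromelysin, was at 199.8, 158 and 117.94 FPKM in U87MG and 18.5, 21.7 and 20.3 in U87TR. Its neighbour MMP1, an interstitial collagenase, was at 9.82, 9.52 and 6.64 FPKM in U87MG and 0.68, 1.25 and 1.04 in U87TR. MMP7, in the same cluster on chromosome 11, rose from 0.18–0.3 to 1.34–2.24 FPKM. The inhibitors TIMP3 and TIMP4 were higher, by 3.72 and 0.98. MMP7 thus went against its neighbours.

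In the plasminogen and tissue factor system, 7 of 15 genes were lower and 4 higher, with a median of -0.52. PLAU, the urokinase that activates plasminogen, was at 786, 655 and 252 FPKM in U87MG and 119.6, 126 and 126 in U87TR. Its U87MG replicate 3 was the lowest of the parental libraries, and the lines did not overlap. The fall did not pass without U87MG replicate 1 or 2 (adjusted p = 0.0558 and 0.0556). TFPI2, a protease inhibitor of the matrix, fell from 909–1206 to 266–389 FPKM. S100A10 and ANXA2, the plasminogen receptor pair, rose from 531–947 to 1374–1512 and from 1353–1655 to 2123–2262 FPKM.

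Collagens and their enzymes showed 9 higher and 5 lower of 28, the count lower being 9 without U87MG replicate 1 and 3 without U87MG replicate 2 or U87TR replicate 3. The chains of type I collagen went apart. COL1A1 was at 87.5, 102 and 182 FPKM in U87MG and 20.4, 19.1 and 15.6 in U87TR. COL1A2 was at 86.4, 98.8 and 151 FPKM in U87MG and 280.1, 217 and 214 in U87TR. In both, U87MG replicate 3 was above the other parental libraries, so that it was farther from U87TR for COL1A1 and nearer for COL1A2. FN1, which codes for fibronectin, was at 375, 397 and 671 FPKM in U87MG and 2446, 1924 and 1972 in U87TR, a rise of 2.18 on the log2 scale (SE 0.18). Among integrins and laminins 9 were higher and 6 lower of 22. ITGA6, a laminin receptor chain marking stem-like cells, rose from 0.9–1.23 to 6.07–6.96 FPKM, and LAMA5 from 37.4–60.7 to 117.88–124. LAMA4, another laminin chain, fell from 11.7–22.7 to 4.34–5.28.

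Of 13 cadherins and neural adhesion genes, 7 were lower and 1 higher, with a median of -0.50. The gene higher, NCAM1, did not pass without U87MG replicate 1 or 2, and without replicate 3 the count higher was 3. CDH4, the retinal cadherin, was at 9.14, 9.36 and 4.89 FPKM in U87MG and 0.69, 0.78 and 0.73 in U87TR. CDH11, a mesenchymal cadherin, went from 2.42, 3.33 and 3.53 FPKM to 0 in all 3 U87TR libraries. Mesenchymal genes as a list had 8 higher and 6 lower of 22. CHI3L1, a secreted glycoprotein of mesenchymal glioblastoma, was at 69.3, 85.96 and 85.5 FPKM in U87MG and 502, 463 and 495 in U87TR. CD44, the hyaluronan receptor, fell from 959.7–1134 to 455–544 FPKM and lies in a run of lower genes on chromosome 11. NES, which codes for nestin of neural stem cells, rose from 6.63–8.8 to 24.6–26.3 FPKM.

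Of 13 keratin and epithelial genes tested, out of 30 listed, 11 were higher and none lower, with a median of 1.19. KRT8, a keratin of simple epithelia, was at 10.7, 13.4 and 18.4 FPKM in U87MG and 35.4, 33.9 and 33.1 in U87TR. KRT80 rose from 10.3–12.1 to 44.97–47.2 FPKM and KRT7 from 2.32–3.97 to 8.6–13.3. KRT16, KRT17 and KRT14, keratins of stratified epithelium that adjoin on chromosome 17 and are similar in sequence, were at most 0.16 FPKM in U87MG and stood at 8.69–10.8, 4.11–6.39 and 1.43–1.58 FPKM in U87TR. Genes near 0 in U87MG, such as KRT16, KRT17 and KRT14, passed the filter only through U87TR and could be called only as higher. The defining epithelial genes CDH1, KRT5 and ESRP1 stayed under 0.1 FPKM in all 6 libraries. Summed over the 10 epithelial markers, levels were 12.6 to 20.6 FPKM in U87MG and 41.6 to 44.9 FPKM in U87TR, most of it from KRT8. In bulk RNA, a change in the share of cells that express a gene and a change in RNA per cell cannot be told apart.

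S100 proteins and annexins, calcium-binding proteins that act at membranes and outside cells, were higher for 11 of 17 and lower for none, with a median of 0.45. S100A4 rose from 8.39–11.1 to 22.5–27.5 FPKM and S100A2 from 11.8–17.2 to 30.6–36.1. Metallothioneins, the metal-binding proteins of a cluster on chromosome 16, were higher for 4 and lower for 3 of 9. MT3, the brain form, was at 0.13, 0.56 and 1.49 FPKM in U87MG and 9.07, 6.24 and 10.3 in U87TR. MT1G and MT1L fell, by 2.23 and 1.54, while MT1F and MT1M rose, by 1.07 and 1.18. These copies are similar enough that reads may be divided between them with error.

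Genes of drug handling were higher in part. Of 20 aldo-keto reductases and aldehyde dehydrogenases, which reduce or oxidise reactive carbonyls, 9 were higher and 2 lower, with a median of 0.46. AKR1C1, a hydroxysteroid dehydrogenase, was at 45.6, 43.4 and 42.97 FPKM in U87MG and 231, 229.9 and 254 in U87TR. AKR1C3 rose from 9.42–11.5 to 42.5–46.5 FPKM and AKR1B10 from 6.61–9.56 to 28.2–29.3. The AKR1C genes are similar copies in a row on chromosome 10, and the same holds for AKR1B10 and AKR1B15 on chromosome 7. ALDH1A3, a retinaldehyde dehydrogenase that marks mesenchymal glioma stem cells, went the other way, from 231, 289 and 197 FPKM in U87MG to 70.7, 99.3 and 98.2 in U87TR.

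Of 20 drug efflux transporters, 6 were higher and 2 lower (1 without U87MG replicate 1 or 2 or without U87TR replicate 2 or 3). ABCC2, the organic anion pump MRP2, was at 3.83, 3.65 and 2.9 FPKM in U87MG and 51.4, 43.5 and 41.2 in U87TR (log2 difference 3.38, SE 0.12, adjusted p = 1.78e-09). ABCG2 rose by 0.70. Of 30 NRF2 targets and regulators, 6 were higher and 4 lower, the latter 1 without U87MG replicate 1 or U87TR replicate 1 and 2 without U87MG replicate 2. EPHX1 and PIR rose by 0.77 and 0.83. MAFG, a partner of NRF2, fell by 0.93 and lies in the run of lower genes on chromosome 17. Of 21 genes of defence against ferroptosis, an iron-dependent death by lipid peroxidation, 4 were higher and 2 lower. The count lower was 0 with median-of-ratios factors and 5 without U87MG replicate 3. AIFM2 and GCLM rose by 0.557 and 0.345, while GPX4 and SLC7A11 did not pass. GPX4 was at 292, 321 and 278 FPKM in U87MG and 264, 268 and 279 in U87TR. The cystine carrier SLC7A11 was at 13.4, 9.93 and 10.7 FPKM in U87MG and 8.79, 10.9 and 8.08 in U87TR. SCD, a desaturase that makes monounsaturated lipids, rose from 32.7, 37.1 and 82.7 to 162, 149.9 and 146 FPKM, with U87MG replicate 3 the highest of the parental libraries.

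The counts for genes that respond to low oxygen and to amino acid or folding stress depended on U87MG replicate 3. Of 34 genes of glycolysis and hypoxia, 7 were higher and 3 lower, but 20 were higher without that library, 3 without U87TR replicate 3 and 1 on leaving out any other. P4HA1, a prolyl hydroxylase of collagen induced by hypoxia, had 35.1, 40.04 and 80.01 FPKM in U87MG and 114, 92.2 and 87.2 in U87TR. Replicate 3 lay between the other parental libraries and U87TR. Of 30 genes of the amino acid and unfolded protein response, 3 were higher and 2 lower, against 11 and 1 without replicate 3, and the count lower was also 1 on leaving out any other library but U87TR replicate 1. HSP90B1, a chaperone of the endoplasmic reticulum, was at 411, 406 and 439 FPKM in U87MG and 719, 653 and 667 in U87TR. The part of this library in these results was not tested beyond leaving it out.

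Many YAP and TEAD targets, TGF-beta and BMP genes and HOX genes did not pass. More members were lower than higher in each list, as over all genes tested, where 1589 were higher and 2644 lower. Only the YAP and TEAD list leaned further to lower than all genes did. Of 27 YAP and TEAD genes, 10 were lower (6 without U87TR replicate 3) and 1 higher (2 without U87MG replicate 3). AMOT, a regulator that holds YAP at cell junctions, fell from 1.86–3.42 to 0–0.04 FPKM, and DLC1, a GTPase-activating protein, from 34.7–38.2 to 8.74–10.7. Of 34 TGF-beta and BMP genes, 12 were lower and 7 higher (4 without U87MG replicate 2). GDF15, a stress-induced member of the family, was at 114, 117.75 and 72.2 FPKM in U87MG and 18.5, 20.6 and 21.9 in U87TR. Its fall did not pass without U87MG replicate 1 or 2 or U87TR replicate 1 or 2 (adjusted p from 0.0605 to 0.0772). LTBP3, which anchors latent TGF-beta in the matrix, was at 175, 167 and 193 FPKM in U87MG and 55.5, 52.6 and 54.9 in U87TR. TGFB3 and ID4 rose by 1.52 and 1.62. SMAD2, a signal transducer of the pathway, fell from 51.3–63.2 to 24.96–27.8 FPKM. SMAD4 and SMAD7, also on chromosome 18, fell by 0.97 and 0.83, and outside the runs of neighbours 8 of 30 members were lower. HOX genes showed 4 higher and 6 lower of 16, not all of them named here. HOXD9, HOXD10, HOXD11 and HOXD13 on chromosome 2 rose by 0.90, 1.52, 1.17 and 0.54, while HOXB2, HOXB3 and HOXB4 on chromosome 17 fell by 0.68, 1.26 and 0.41.

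Of 17 histone deacetylases and sirtuins, 6 were lower and none higher (1 without U87MG replicate 3). HDAC9 fell from 10.4–13.5 to 3.74–4.11 FPKM and SIRT7 from 36.96–49.9 to 15.9–19.2. Among 16 genes that write, read or erase DNA methylation, 4 were lower and 1 higher (none without U87MG replicate 1 or 2 or U87TR replicate 2, and 2 without U87MG replicate 3). The readers MBD1 and MBD2, both on chromosome 18, fell by 0.95 and 0.76, and outside the runs 2 of 14 were lower. Imprinted genes, which are expressed from one parental allele, were lower for 8 and higher for 4 of 21 (2 higher without U87MG replicate 1 or 2). Besides MEG3, PHLDA2 and CD81, which lies beside imprinted genes of chromosome 11, NDN went from 4.29–6.05 FPKM to 0 in all U87TR libraries, MEST fell from 38.9–43.3 to 14.4–16.7 and PEG10 rose from 39.7–42.1 to 68.96–72.4 FPKM. Of 34 MAGE and other cancer-testis genes listed, 9 were tested, 3 were lower and 1 was higher (2 without U87MG replicate 3). MAGEC1 went from 2.43–2.59 FPKM to 0 and MAGEC2 rose from 1.99–2.39 to 11.7–12.97. The genes lower, MAGEA1, MAGEA6 and MAGEC1, passed the filter only through U87MG and could be called only as lower. The same holds for MEG3 and NDN among the imprinted genes.

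Ribosomes, proteasomes, oxidative phosphorylation and lysosomes serve every cell. Of 46 cytosolic ribosomal protein genes, 1 was higher and 7 lower, with a median of -0.11. With median-of-ratios factors 3 were lower, as without U87MG replicate 2 or U87TR replicate 1, and 4 without U87TR replicate 2. The single gene higher passed only without U87MG replicate 2 or U87TR replicate 1 when a library was left out. Of 25 proteasome genes, 4 were higher and 3 lower, but 10 were higher with median-of-ratios factors. Without U87MG replicate 2 or 3 or U87TR replicate 2 or 3 the count higher was 2, and without U87MG replicate 2 or U87TR replicate 1 the count lower was 1. Of 30 genes of oxidative phosphorylation, 1 was higher and 5 lower, among them ATP5A1 on chromosome 18, at 249–292 FPKM in U87MG and 144–148 in U87TR. With median-of-ratios factors 4 were higher and 4 lower. Without U87TR replicate 1 the count higher was 2, and without U87TR replicate 2 the count lower was 3. Of 30 lysosomal genes, 10 were lower and 4 higher, the latter 2 without U87MG replicate 2 or without U87TR replicate 1 or 2.

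Placed in gene order, part of the lower genes stood in blocks of neighbours. Of the genes tested, 12223 could be placed on a chromosome of GRCh38.p14 by symbol, and a running median of the log2 difference over 25 genes was taken along each chromosome. A run was a stretch of at least 10 genes with a running median beyond 0.4 in size. This scan was chosen after the data were seen and is a description with no test. It gave 10 runs with 486 genes, of which 300 were lower and 75 higher. They held 11.3% of all genes lower and 4.72% of all genes higher. The share of genes lower was 44.7% on chromosome 11 and 47.8% on chromosome 18, and 19.5% of genes were higher on chromosome 1, against 11.8% higher and 19.6% lower over all genes tested.

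The deepest runs lay on chromosomes 11, 17 and 18. From RARRES3 to EIF1AD on chromosome 11, 68 of 77 genes were lower and 1 higher, with a median log2 difference of -1.06 and quartiles of -1.24 and -0.74. The median over these genes in each library, relative to the U87MG mean, was -0.05, 0.04 and -0.02 in U87MG and -1.1, -1.08 and -0.996 in U87TR. The shift itself follows from how the run was chosen, and within it the libraries of each line lay close together. From GAA to CSNK1D on chromosome 17, 39 of 44 genes were lower, with a median of -1.04. From SLC39A6 to LINC00909 on chromosome 18, 62 of 75 genes were lower, with a median of -0.84, a run that includes SMAD2, SMAD4, MBD1, MBD2, BCL2, SERPINB2, DCC and ST8SIA5. Shallower runs of lower genes covered HRAS to ARFIP2 (median -0.53, 34 of 53 lower), RRP8 to GTF2H1 (-0.46, 36 of 55) and APIP to FNBP4 (-0.50, 38 of 51) on chromosome 11, and RAB11FIP3 to UNKL on chromosome 16 (-0.55, 18 of 25). A short run from SPTY2D1 to BDNF on chromosome 11 had 5 of 13 lower.

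Higher neighbours stood together on chromosome 1, where 25 of 37 genes from POGK to RC3H1 (median 0.52) and 39 of 56 from KIAA0040 to NEK7 (median 0.54) were higher and none lower. Over the same runs the median difference of U251TR from U251MG was 0.56 and 0.26, against 0.36 over all placed genes of that chromosome. For the 3 deepest runs of lower genes it was 0.11 (chromosome 11), 0.12 (chromosome 17) and 0 (chromosome 18). Individual members fell further than their runs, as CD81 and PHLDA2 did in the HRAS to ARFIP2 run, and SERPINB2, its neighbour SERPINB7 (31.1–40.8 FPKM in U87MG, 2.07–2.52 in U87TR), ST8SIA5 and DCC (3.79–4.92 and at most 0.01 FPKM) did on chromosome 18. EHD2, E2F7, MEG3, FOXF1, IL1B, SNX6, TGM2 and MAGEA1 are in no run. Among the 11734 placed genes outside the runs, on chromosomes with enough genes for the window, 11.3% were higher and 18.8% lower, with a median of -0.07. DNA copy number was not measured.

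**Figure D5:**
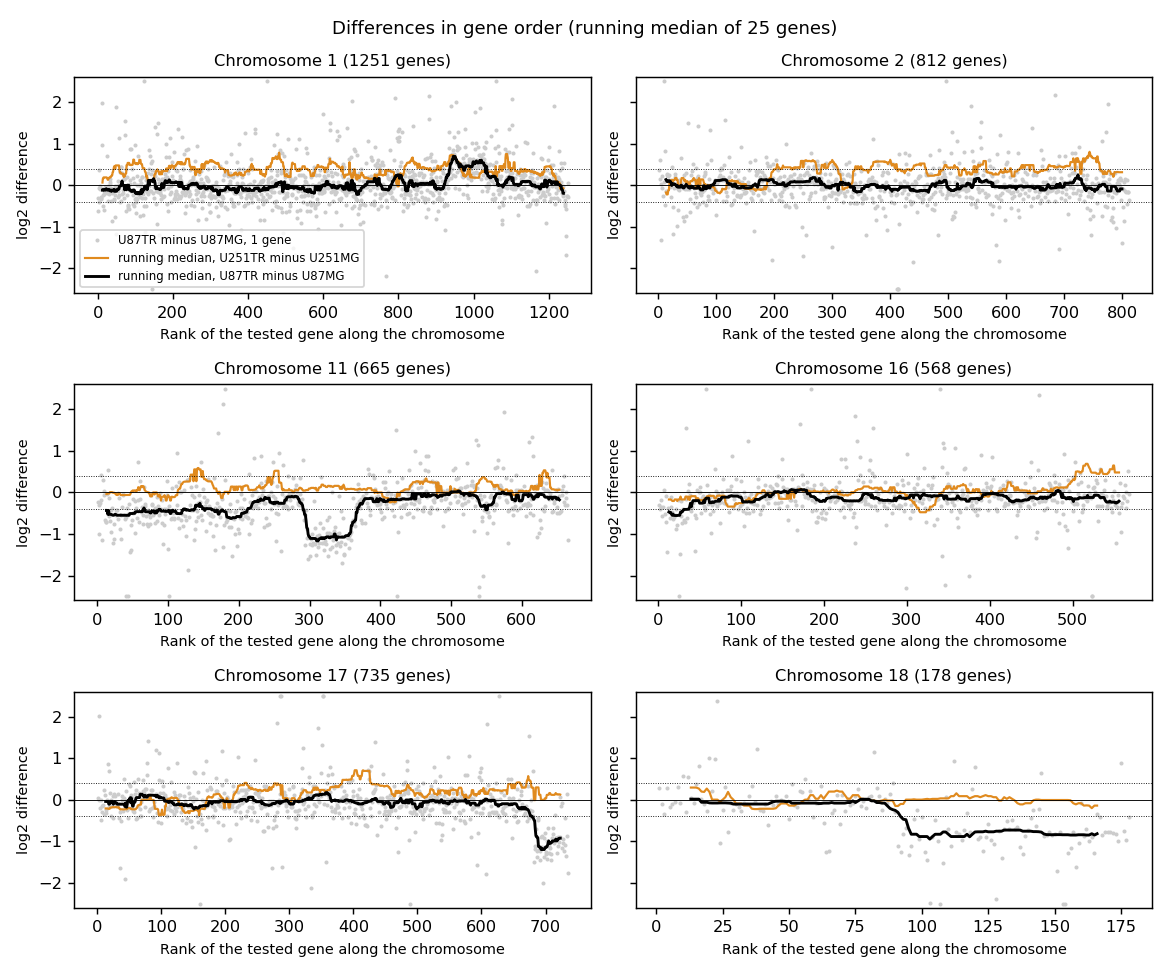
Log2 difference of U87TR from U87MG for each placed gene (grey points, drawn at the edge where beyond 2.5), its running median over 25 genes (black) and the running median of the U251TR difference over the same genes (orange), by rank of the gene along 6 chromosomes; dotted lines mark 0.4 and -0.4. The black line drops below -0.4 on parts of chromosomes 11, 16, 17 and 18 and rises above 0.4 on chromosome 1, while chromosome 2, shown as a chromosome with no run, stays near 0.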

How the data were processed

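RNA of 12 libraries from 4 cell lines was sequenced as 150 bp pairs on an Illumina HiSeq, from 3 µg of RNA whose integrity number was 6.8 or more and a median insert of 200 nucleotides, per the labels. The authors deposited 1 table of 31681 rows by gene symbol. The deposited values are taken as FPKM from their form, since the table does not name its unit. STAR 2.5.2b and RSEM 1.2.31 are named in the submitters' processing notes. These notes name hg19 and the series text hg38, so no coordinates were given to the table's genes, and RefSeq GRCh38.p14 served for gene order and promoters only. No read counts were used, so depth is not known.

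From the table, 27 symbols turned into dates were left out. Values were tested as log2(FPKM + 1) with limma 3.58.1 (R 4.3.3) in a model of group means over all 12 libraries with 8 residual degrees of freedom, which share 1 estimate of the spread, with variance trend and robust moderation. Tests were two-sided, with Benjamini-Hochberg adjustment over the 13464 genes and a threshold of 0.05. The steps were tested on simulated data. Figures and summaries were made with Python 3.11.15, pandas 2.3.3 and matplotlib 3.10.9. Replicate numbers were not used as pairs.

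Named genes were the repair and ferroptosis genes MGMT, MSH6, PMS2, MPG, APEX1, GPX4 and SLC7A11, the 12 largest rises and falls with a plain symbol, at least 10 FPKM in the higher line and no overlap of libraries, up to 6 changed and 2 highly expressed members of each of 55 gene lists, genes at 0 in 1 line and at 5 FPKM or more in the other, and up to 4 neighbours on each side of the largest changes. CASP1, CD44, CD68, HERC5, HOXB4, HOXD13, IFI44L, IFITM2, IRF9, JAK1, MAVS, PEG10, SMAD4, SMAD7, STAT2, TIMP4 and TRIM22 fall outside this rule and were chosen after their values were seen. Some genes that the rule names are not reported here. The comparison and the gene lists were chosen with earlier results of these data known. Alternatives changed the pseudocount, the filter, the libraries in the fit, the scaling (median-of-ratios factors, TPM, quantile normalization), the moderation and the replicate block, and left out each library in turn.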

Additional observations from a re-analysis of the deposited data

Results flagged for a closer look

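For 11 of the 12 genes set against the other pair of lines, the change from U87MG to U87TR differed from the change from U251MG to U251TR in limma, and values are on the log2(FPKM + 1) scale with adjusted p over all genes. This difference passed for 47.0% of all genes tested. The 12 genes were chosen for the size of their U87 change, which is part of the difference, so the choice favoured passing. The number block of the U87TR library codes cannot be told apart from a difference between the lines. MGMT rose by 4.54 more in the U87 lines (adjusted p = 6.03e-10), C10orf118 by 4.21 more (adjusted p = 7.96e-08) and MYO15B by 4.09 more (adjusted p = 2.36e-07). SERPINA1 rose by 0.72 more (adjusted p = 0.0441), while IFIT2 had a difference of -0.94, a smaller rise than in the U251 lines (adjusted p = 0.000855).

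Among the falls, CD81 had a difference of -7.14 (adjusted p = 1.16e-10), EHD2 of -5.79 (adjusted p = 7.52e-10) and E2F7 of -4.43 (adjusted p = 1e-06). MEG3 had a difference of -6.45 (adjusted p = 6.52e-09), with its level rising in U251TR and listed at 0 in U87TR. SERPINB2 had a difference of -4.39 (adjusted p = 7.1e-06) and ST8SIA5 of -4.38 (adjusted p = 3.16e-06). Levels in U251MG are not reported here, and a gene hardly expressed there has no room to fall. MGMT, EHD2, MEG3 and ST8SIA5 are at 0 in all libraries of one U87 line, so their values depend on the pseudocount and are no bound on a fold.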

How the results depend on the processing

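Of 17 alternatives to the main settings, each changing 1 choice, none reversed the direction of a called gene named above. The count of changed genes was 3010 to 4437 with single libraries left out, lowest without U87MG replicate 2 and highest without U87MG replicate 3, and 4032 with the replicate number as a block, where no call of a named gene was lost. Same-numbered libraries of the lines did not deviate together (r = -0.06, 0.09 and -0.07), and libraries with unlike numbers had r from -0.104 to 0.116. This shows no pairing by number but cannot exclude that same-numbered cultures were handled together. Counts that moved by more were the genes changed at least 2-fold, 293 with a pseudocount of 5 FPKM and 511 with a filter at 5 FPKM, and the genes higher, 1031 with that filter, which tests fewer genes. The difference between the U87 and U251 changes of CCL5 turned to 0.032 with median-of-ratios factors (adjusted p = 0.903) and 0.29 with quantile normalization (adjusted p = 0.248). That of IFIT2 no longer passed with quantile normalization (-0.24, adjusted p = 0.331). That of SERPINA1 turned to -0.94 with a pseudocount of 0.1 FPKM (adjusted p = 0.15), did not pass with no filter (0.72, adjusted p = 0.0928) or TPM (0.52, adjusted p = 0.162), and was 0.55 to 0.97 with single libraries left out. The cause was not tested. Beside the genes named in the report as lost with a library left out, CAV2 was lost with a pseudocount of 5 FPKM, no filter, a filter over all 12 libraries or no trend and no robust moderation, CXCL14 with that pseudocount, ABCG2 and HOXB2 with one of 0.1 FPKM, and APEX1 with no filter or with quantile normalization. MAVS was lost with a pseudocount of 5 FPKM, no filter, a filter over all 12 libraries, no trend and no robust moderation, or another scaling (adjusted p from 0.0525 to 0.126). The log2 difference of STAT2, near 0, was -0.054 to 0.032 with single libraries left out. List counts also moved. In a fit on the 6 U87 libraries alone, 3 glycolysis and hypoxia genes, 7 amino acid and unfolded protein response genes and 8 proteasome genes were higher, and 8 ferroptosis driver and 10 p53 target genes lower. With a filter at 5 FPKM, 4 keratin and epithelial genes were higher and 3 cadherin and 2 HOX genes lower. The genes in runs of neighbours numbered 312 with a limit of 0.5 and 600 with a limit of 0.3. Depth is not known and limits what can be said of genes near 1 FPKM.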

Other observations

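Several further groups of genes changed in both directions. Of 14 genes of insulin-like growth factor signalling, 5 were lower and 3 higher in U87TR, the latter 5 without U87MG replicate 3. IGFBP2, a binding protein known from malignant glioma, was at 3.99, 5.06 and 6.82 FPKM in U87MG and 1.28, 1.13 and 0.97 in U87TR. IGFBP4 and IGFBP7, other binding proteins of the family, went from 10.2–14.8 to 42.8–48 and from 79.2–93.9 to 236–246 FPKM. IGFBP2 was thus lower in U87TR while the other two were higher.

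Of 24 axon guidance genes, 5 were lower and 4 higher (7 without U87MG replicate 3). SEMA3B, a secreted semaphorin, rose from 3.74–6.47 to 16.3–22.9 FPKM, and the semaphorin receptor PLXNA2 from 2.59–3.8 to 8.66–10.6. SEMA3A, a relative of SEMA3B, fell from 3.84–5.27 to 2.08–2.24 FPKM. Of 14 complement and acute phase genes, 4 were higher (2 without U87TR replicate 1) and 3 lower. C1R, a protease of the first complement component, was at 91.9, 104 and 105 FPKM in U87MG and 22.3, 21.4 and 20.5 in U87TR, and its partner and neighbour C1S fell by 0.74 on the log2 scale. CFI, which inactivates complement, rose by 0.83. In the BCL2 family and caspases, 7 of 26 were lower and 4 higher, the latter 2 without U87MG replicate 1 or U87TR replicate 1 or 2. CARD16, a caspase 1 regulator, fell from 8.6–13.96 to 1.46–2.82 FPKM, and CASP1 fell by 0.60.

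Metabolic and membrane genes moved as follows. ODC1, the first enzyme of polyamine synthesis, fell from 96.4–161 to 54.9–62.5 FPKM, and 4 of 13 polyamine genes were lower and 1 higher, or 2 without U87MG replicate 3. Of 30 genes of cholesterol synthesis and SREBP targets, 5 were higher and 2 lower, but 14 were higher in a fit on the 6 U87 libraries alone and 9 with quantile normalization. FASN, the fatty acid synthase, fell by 0.90 while SCD rose, and it lies in the run of lower genes on chromosome 17. Of 12 potassium channel genes, 4 were higher and 3 lower, the former 2 without U87MG replicate 1 or 2 or U87TR replicate 2 or 3. Besides ST8SIA5, the ganglioside and sialyltransferase genes had 3 lower and 3 higher of the other 16 tested. ST8SIA1, which makes ganglioside GD3, rose from 0.86–1.46 to 2.36–3.46 FPKM.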
